A study of Mus musculus with 15 samples.

Results

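Integrins, tensins and the proteins that build focal adhesions were followed in the choroid plexus of mice with and without Add1, which encodes the membrane skeleton protein alpha-adducin. The 37 genes were taken by symbol or synonym from a list of integrin subunits, other matrix receptors and cytoplasmic adhesion proteins. Of these, 36 had a probe set, among 19938 genes on the array, and the kinase gene Ptk2 was not analysed here. Where a gene had several probe sets, the one with the highest mean over all arrays was used. A value above 5.31, the median over the kept probe sets, in at least 5 arrays was required for testing, and 30 of the 36 genes passed among 10109 in all.

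The animals were null (knockout), heterozygous or wild-type for Add1, with 5 mice and 5 arrays of each genotype. All were of the C57BL/6J strain, labelled male and 3 weeks of age, an age chosen to come before hydrocephalus develops. The labels do not say which part of Add1 was deleted, in which cells, or whether animals were littermates. Each array gave 1 value per probe set on the log2 scale, after robust multi-array averaging (RMA), so that a difference of 1 is a doubling of signal.

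Integrins are receptors made of an alpha and a beta subunit that bind laminin, collagen, fibronectin and other matrix proteins outside the cell. Inside the cell, talins and kindlins bind the beta tail and switch the receptor to its active state, and vinculin, the parvins and most tensins couple it to actin. The kinases Src and FAK, with the scaffolds paxillin and p130Cas, pass the signal on. The choroid plexus epithelium rests through such receptors on a basement membrane that separates it from a stroma of vessels and fibroblasts, so bulk tissue holds the adhesion genes of several cell types.

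The targeted gene and the tissue were checked on the same arrays. Add1 averaged 7.61 ± 0.16 in null, 7.76 ± 0.10 in heterozygous and 7.92 ± 0.12 in wild-type animals (SD, n = 5 each), with every null array below every wild-type array. The log2 difference of null from wild type was -0.31 (limma adjusted p = 0.0241). With null array 4 left out it was -0.28 (adjusted p = 0.0512), with wild-type array 1 left out -0.30 (adjusted p = 0.0636) and with wild-type array 2 left out -0.28 (adjusted p = 0.0681), so the call depended on each of these arrays. Null signal was 80.6% of wild type, and null did not differ from heterozygous beyond the spread (-0.16, adjusted p = 0.224), with arrays that overlapped. All 10 epithelial markers with a probe set, of 11 listed, lay above the filter, and their mean level was 10.8 in null, 10.8 in heterozygous and 10.7 in wild-type animals. Null arrays 1 and 5 had Xist at 9.09 and 9.69, against at most 3.88 in the other 13 arrays, and low Y-linked genes, which goes against their male label. With both left out, Add1 differed by -0.26 (adjusted p = 0.1003). Heterozygous array 1 was high in neuronal transcripts, with Snap25 at 7.72. Each description in the labels carries a number of unstated meaning, here called the label number, which ran with genotype, from 444 to 483 in null animals, against at most 432 in 4 of 5 heterozygous and 4 of 5 wild-type animals and 460 and 451 in the others. Its part in the differences of null animals cannot be fully told apart from genotype.

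Tns4 fell and Src rose in animals labelled Add1 null. Tns4 encodes tensin 4, also called CTEN, a short tensin that keeps the C-terminal region binding integrin tails but lacks the actin-binding N-terminal region of its relatives. Src encodes the tyrosine kinase that phosphorylates paxillin and p130Cas at adhesions. These were the 2 members called between null and wild type at an adjusted p under 0.05, 1 higher and 1 lower, among 30 tested, or 6.67%. Of all tested genes 7.72% were called in this comparison, 4.17% higher and 3.54% lower, so the members' share was close to the background. At an unadjusted p under 0.05 in limma the counts were 9 of the 30 tested members and 2429 of all 10109 tested genes (24%). Between heterozygous and wild type no member was called, nor was any gene (0%), while 381 genes, or 3.77%, had an unadjusted p under 0.05 in limma, with 0 members among them. Between null and heterozygous 1 member was called, Tns4, which was lower, or 3.33% of those tested. Of all genes 7.82% were called there, 4.28% higher and 3.54% lower. An unadjusted p under 0.05 was found for 8 of the 30 members and for 2605 of all 10109 tested genes (25.8%). Null and heterozygous animals were compared with the same wild-type arrays, and each genotype enters more than 1 comparison, so these counts are not independent. In bulk tissue, fewer cells of a type and less RNA per cell cannot be told apart.

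**Figure D1:**
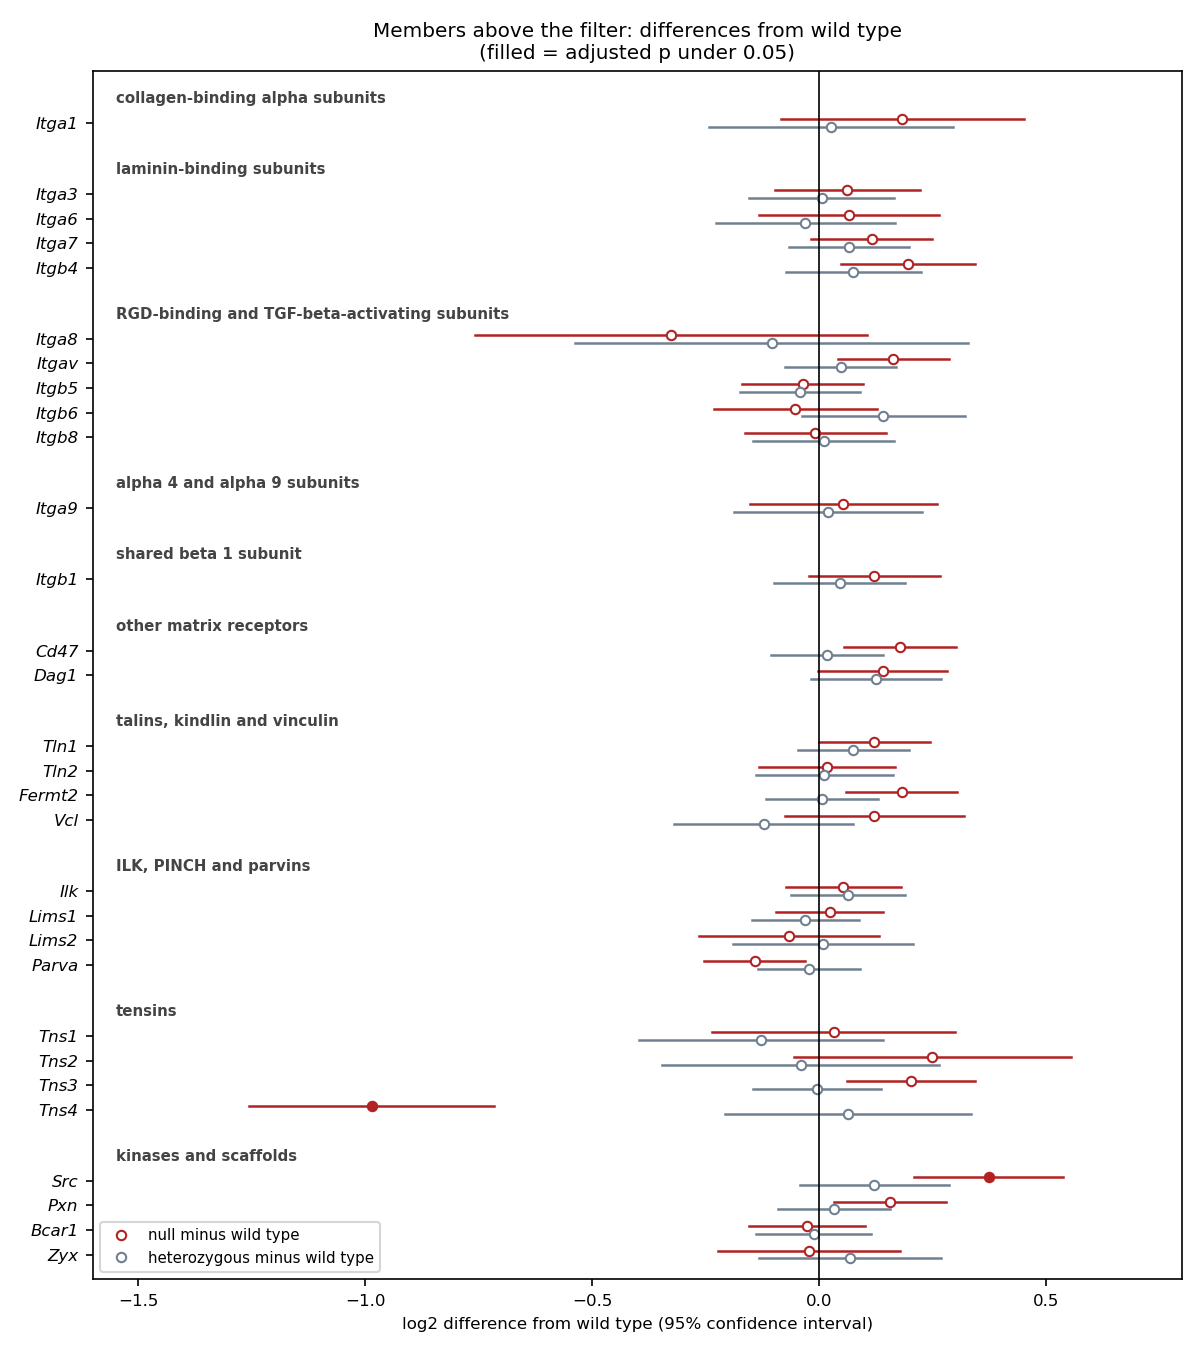
Log2 differences from wild type (x axis) of the 30 members above the filter, grouped by role, with 95% confidence intervals from the fit over all genes. Null minus wild type is in red and heterozygous minus wild type in grey, and filled points have an adjusted p under 0.05. Tns4 stands at -0.99 and Src at 0.37, the other 28 null differences lie between -0.33 and 0.25, and no heterozygous difference is filled.

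The tensins link integrin tails to signalling proteins, and those other than Tns4 also link them to actin filaments. Tns4 had the largest difference of the 30 tested members. It read 5.34, 5.72, 4.81, 5.42 and 5.28 in null arrays 1 to 5. It read 6.31, 6.35, 6.46, 6.40 and 6.30 in the heterozygous arrays and 6.26, 6.68, 6.27, 6.16 and 6.13 in the wild-type arrays. Every null array lay below every array of the other genotypes, and heterozygous and wild-type arrays overlapped. The null mean was 5.31 ± 0.33, against 6.30 ± 0.22 in wild-type animals, so that null signal was 50.5% of wild type (log2 difference -0.99, 95% confidence interval -1.26 to -0.72, limma adjusted p = 0.000425). An exact permutation test of the 5 null against the 5 wild-type arrays gave p = 0.00794, unadjusted and two-sided, the smallest the design allows.

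Tns4 also fell against heterozygous animals. The heterozygous mean was 6.36 ± 0.07, and the log2 difference of null from heterozygous was -1.05 (95% confidence interval -1.32 to -0.78, adjusted p = 0.000385). Heterozygous and wild-type animals differed by 0.06 (95% confidence interval -0.21 to 0.33), an interval that does not reach the difference seen in null animals. Only 3 of the 5 null arrays were above the filter value, so Tns4 passed the filter through the other genotypes, and at this low level an array compresses differences. Without null arrays 1 and 5 the difference from wild type was -0.98 (adjusted p = 0.00395), and with any single array left out it ran from -1.09 to -0.86 (highest adjusted p = 0.00194).

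The other tensins, Tns1, Tns2 and Tns3, which carry the actin-binding N-terminal region, did not pass the test in any comparison. Tns3 read 7.16, 7.27, 7.12, 7.12 and 7.00 in null arrays, 6.76, 6.98, 6.93, 6.90 and 7.07 in heterozygous arrays and 6.83, 6.99, 6.84, 7.01 and 6.99 in wild-type arrays. Null array 5 alone fell within the wild-type range. The difference of null from wild type was 0.20 (adjusted p = 0.0734), and that from heterozygous 0.21 (adjusted p = 0.064). Without null array 5 both were 0.24 and both passed (adjusted p = 0.0411 each), and without heterozygous array 5 the comparison with heterozygous animals passed too (0.24, adjusted p = 0.0474). Tns2 averaged 6.46 ± 0.32 in null, 6.17 ± 0.21 in heterozygous and 6.21 ± 0.25 in wild-type animals, and null array 1, at 6.94, stood above all others. Tns1 averaged 8.87 ± 0.33 in null, 8.71 ± 0.14 in heterozygous and 8.84 ± 0.16 in wild-type animals, again with null array 1 the highest, at 9.41. Tns1 had 6 probe sets, and the differences of null from wild type over them ran from 0.01 to 0.21.

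**Figure D2:**
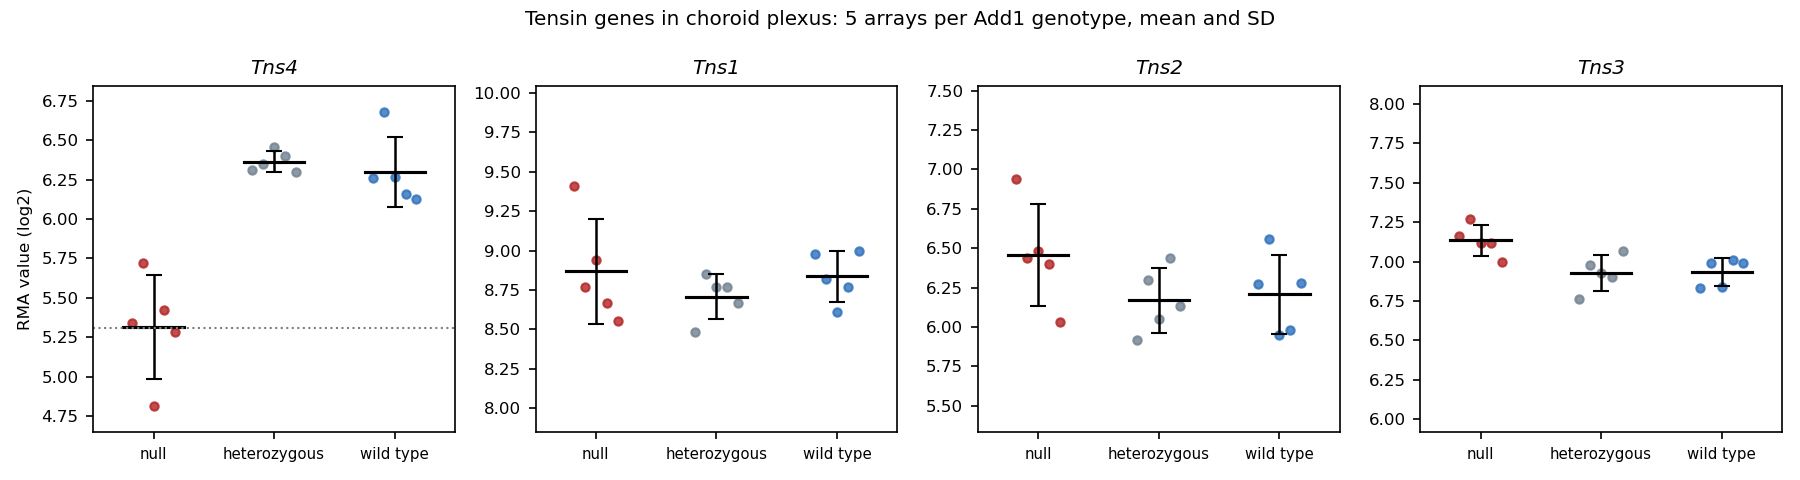
RMA values (log2, y axis) of the 4 tensin genes in 5 null, 5 heterozygous and 5 wild-type arrays, with the mean and SD in black, all panels spanning the same range, and the filter value of 5.31 as a dotted line. The null arrays of Tns4 lie between 4.81 and 5.72, below all 10 other arrays, while the genotypes overlap for Tns1, Tns2 and Tns3.

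Src read 6.37, 6.25, 6.29, 6.10 and 5.89 in null arrays 1 to 5. It read 5.96, 5.92, 5.85, 5.90 and 6.01 in the heterozygous arrays and 5.87, 5.82, 5.76, 5.68 and 5.90 in the wild-type arrays. Null arrays 1 to 4 lay above every other array, and null array 5 lay just under the highest wild-type array. The null mean was 6.18 ± 0.19, against 5.81 ± 0.09 in wild-type animals, a rise of 1.30-fold (log2 difference 0.37, 95% confidence interval 0.21 to 0.54, limma adjusted p = 0.00825; exact two-sided permutation p = 0.0159, unadjusted). The heterozygous mean, 5.93 ± 0.06, was 0.12 above wild type (95% confidence interval -0.04 to 0.29), and null stood 0.25 above heterozygous (adjusted p = 0.0543). The comparison of null with heterozygous passed without null array 5 (0.32, adjusted p = 0.00876) and without null arrays 1 and 5 (0.29, adjusted p = 0.0336). Against wild type Src passed whichever single array was left out (0.33 to 0.45, highest adjusted p = 0.0278) and without null arrays 1 and 5 (0.41, adjusted p = 0.00445).

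The Src promoter is shown as the regulatory sequence of the member that rose. RefSeq holds a promoter entry for 27 of the 37 genes in its GRCm38.p6 table. The Src entry lies at chr2:157424043-157424342 on the plus strand, from 250 bases before to 50 bases after the gene start, printed 5′ to 3′ with GC boxes (GGGCGG on either strand) in capitals.
Src promoter: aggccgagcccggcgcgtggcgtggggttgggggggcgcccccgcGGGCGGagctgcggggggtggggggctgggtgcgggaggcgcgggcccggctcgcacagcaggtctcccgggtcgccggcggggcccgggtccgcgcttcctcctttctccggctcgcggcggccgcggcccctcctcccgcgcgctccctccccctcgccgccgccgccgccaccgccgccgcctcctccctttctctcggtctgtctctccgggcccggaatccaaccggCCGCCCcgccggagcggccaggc
It was 82.3% G and C with 47 CpG pairs, against a median of 52.7% and 7 over 32851 promoter entries of the same length. The GC box, the site of Sp1-type factors, occurred 2 times, and 35.7% of all entries held at least 1. No match was found in this window to GGAATG (the TEAD site, in 14.7% of all entries), CACGTG (an E-box, 7.15%), TGANTCA (the AP-1 site, 7.81%), TATAAA (the TATA box, 13.6%) or the CArG box of serum response factor (1.63%), each searched on both strands. These are matches of letters only.

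Some cell type markers differed in the same arrays. Of 7 endothelial markers 4 lay above the filter, and 2 of them rose in null animals, Cdh5 (0.55, adjusted p = 0.0275) and Kdr (0.49, adjusted p = 0.00395), while Plvap (0.18) and Emcn (-0.03) were not called. The linear signal summed over the list ran from 489 to 646 in null, 391 to 482 in heterozygous and 386 to 544 in wild-type arrays. Of 6 stromal markers 5 were tested, and Dcn (0.68) and Pdgfra (0.79) rose while Col1a2 (0.14), Col1a1 (0.02) and Lum (-0.08) were not called, with summed signals of 1842 to 2319 in null, 1300 to 1804 in heterozygous and 1273 to 1689 in wild-type arrays. Within the null arrays, array 5 was the lowest for Src. It was also the lowest for the endothelial list, with a mean log2 level of 5.77, against 5.92 to 6.27 in the other null arrays. The same array was lowest for the epithelial, pericyte, platelet and erythroid, neuronal, oligodendrocyte and astrocyte lists, and for 29.2% of all tested genes. The macrophage, cerebellar neuron and ependymal lists were lowest in null array 1. The stromal list was lowest in null array 1 (7.35), the array with the highest Src value, and next in array 5 (7.39). Of 5 tested astrocyte and radial glia markers all were above 0, with a median of 0.48, and 1 was called, Sox2 (0.35, adjusted p = 0.0103). Of 4 tested ependymal markers Ccdc153 rose (0.53, adjusted p = 0.0107) and Dynlrb2 fell (-0.31, adjusted p = 0.0446). Pericyte and macrophage markers, 3 tested in each list, gave no call. Neuronal (3 tested), oligodendrocyte (5) and cerebellar neuron markers (5) gave none either. The cerebellar neuron list had a median of -0.51 against wild type, with 1 marker above 0, and of -0.81 against heterozygous animals. Its mean log2 level was 7.49 in heterozygous array 1 and 5.56 to 5.67 in the other heterozygous arrays, so the second median rests largely on that array. Medians against wild type were 0.02 for the neuronal and 0.01 for the oligodendrocyte list. These calls depended on null arrays 1 and 5. With both left out, the pericyte marker Pdgfrb and the astrocyte markers Aqp4 and Gfap were called higher against wild type. In that fit Pdgfra, Sox2 and Dynlrb2 lost their calls, and Cdh5, Kdr, Dcn and Ccdc153 kept theirs. The part of these cell types in the differences of Tns4 and Src was not tested. The epithelial list had a mean log2 level of 10.77 to 10.83 in null and 10.66 to 10.78 in wild-type arrays. Of its 10 tested markers 2 rose, Aqp1 (0.34, adjusted p = 0.00256) and Krt18 (0.26, adjusted p = 0.0275), and 1 fell, Kcne2 (-0.24, adjusted p = 0.0257). Without null arrays 1 and 5 only Aqp1 kept its call. Shares called were 30% of epithelial, 50% of endothelial, 40% of stromal, 20% of astrocyte and 50% of ependymal markers tested, against 7.72% of all tested genes.

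Among the remaining kinases and scaffolds, Pxn, which encodes the scaffold paxillin, read 7.79, 7.73, 7.69, 7.75 and 7.55 in null arrays. It read 7.60, 7.44, 7.59, 7.62 and 7.65 in heterozygous arrays and 7.63, 7.59, 7.52, 7.49 and 7.50 in wild-type arrays. Null arrays 1 to 4 lay above the wild-type range and array 5 within it, and the difference of 0.16 did not pass (adjusted p = 0.112) except without null array 5 (0.19, adjusted p = 0.0419). Bcar1, which encodes p130Cas, a Src substrate, averaged 6.93 ± 0.13 in null, 6.94 ± 0.05 in heterozygous and 6.95 ± 0.04 in wild-type animals. The actin-associated LIM protein gene Zyx averaged 6.28 ± 0.15 in null, 6.37 ± 0.23 in heterozygous and 6.31 ± 0.04 in wild-type animals. For Bcar1 the 95% confidence interval of null minus wild type was -0.15 to 0.10, and for Zyx -0.22 to 0.18.

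Talins, kindlins and vinculin activate integrins or anchor them to actin, and all 4 tested members of this group had a null mean above the wild-type mean without passing the test. Fermt2, which encodes kindlin-2, read 8.11, 8.11, 8.17, 8.06 and 7.95 in null arrays. It read 7.98, 7.75, 7.95, 7.89 and 7.95 in heterozygous arrays and 7.86, 7.86, 7.85, 7.97 and 7.95 in wild-type arrays. As with Src and Pxn, null arrays 1 to 4 lay above every other array. The difference from wild type was 0.18 (adjusted p = 0.0652) and it passed without null array 5 (0.21, adjusted p = 0.0308). Tln1, the widely expressed talin gene, read 8.07, 7.88, 8.01, 7.94 and 7.86 in null arrays, 7.85, 7.87, 7.90, 7.98 and 7.93 in heterozygous arrays and 7.81, 7.88, 7.69, 7.84 and 7.93 in wild-type arrays. These groups overlapped, and the difference of null from wild type was 0.12 (adjusted p = 0.211). Vcl, which encodes vinculin, read 6.32, 6.29, 6.37, 6.33 and 5.83 in null arrays, 5.77, 5.99, 5.99, 6.12 and 6.05 in heterozygous arrays and 6.06, 6.13, 5.99, 6.09 and 6.26 in wild-type arrays. Here too null array 5 alone left the range of the other null arrays, all of which exceeded every other array. The difference from wild type was 0.12 (adjusted p = 0.461) and that from heterozygous 0.24 (adjusted p = 0.111), and the comparison with heterozygous animals passed without null array 5 and without null arrays 1 and 5. Tln2 lay near the filter in all genotypes, at 5.35 ± 0.17 in null, 5.34 ± 0.08 in heterozygous and 5.33 ± 0.004 in wild-type animals.

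The complex of integrin-linked kinase, the PINCH adaptors and the parvins bridges beta tails to actin. Parva, which encodes alpha-parvin, read 9.07, 9.25, 9.06, 9.10 and 9.02 in null arrays. It read 9.17, 9.24, 9.20, 9.29 and 9.20 in heterozygous arrays and 9.19, 9.27, 9.22, 9.23 and 9.30 in wild-type arrays. Null arrays other than array 2 lay below all arrays of the other genotypes. The difference of null from wild type, -0.14, did not pass (adjusted p = 0.109) and did so without null array 2 (-0.18, adjusted p = 0.0209) and after median centring of the arrays (-0.16, adjusted p = 0.0469). Parva had the smallest pooled SD within genotypes of all 30 tested members, 0.063. Ilk, Lims1 and Lims2 differed from wild type by 0.05, 0.02 and -0.07 in null animals and by 0.06, -0.03 and 0.01 in heterozygous animals, with no call. Parvb was below the filter in every array.

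**Figure D3:**
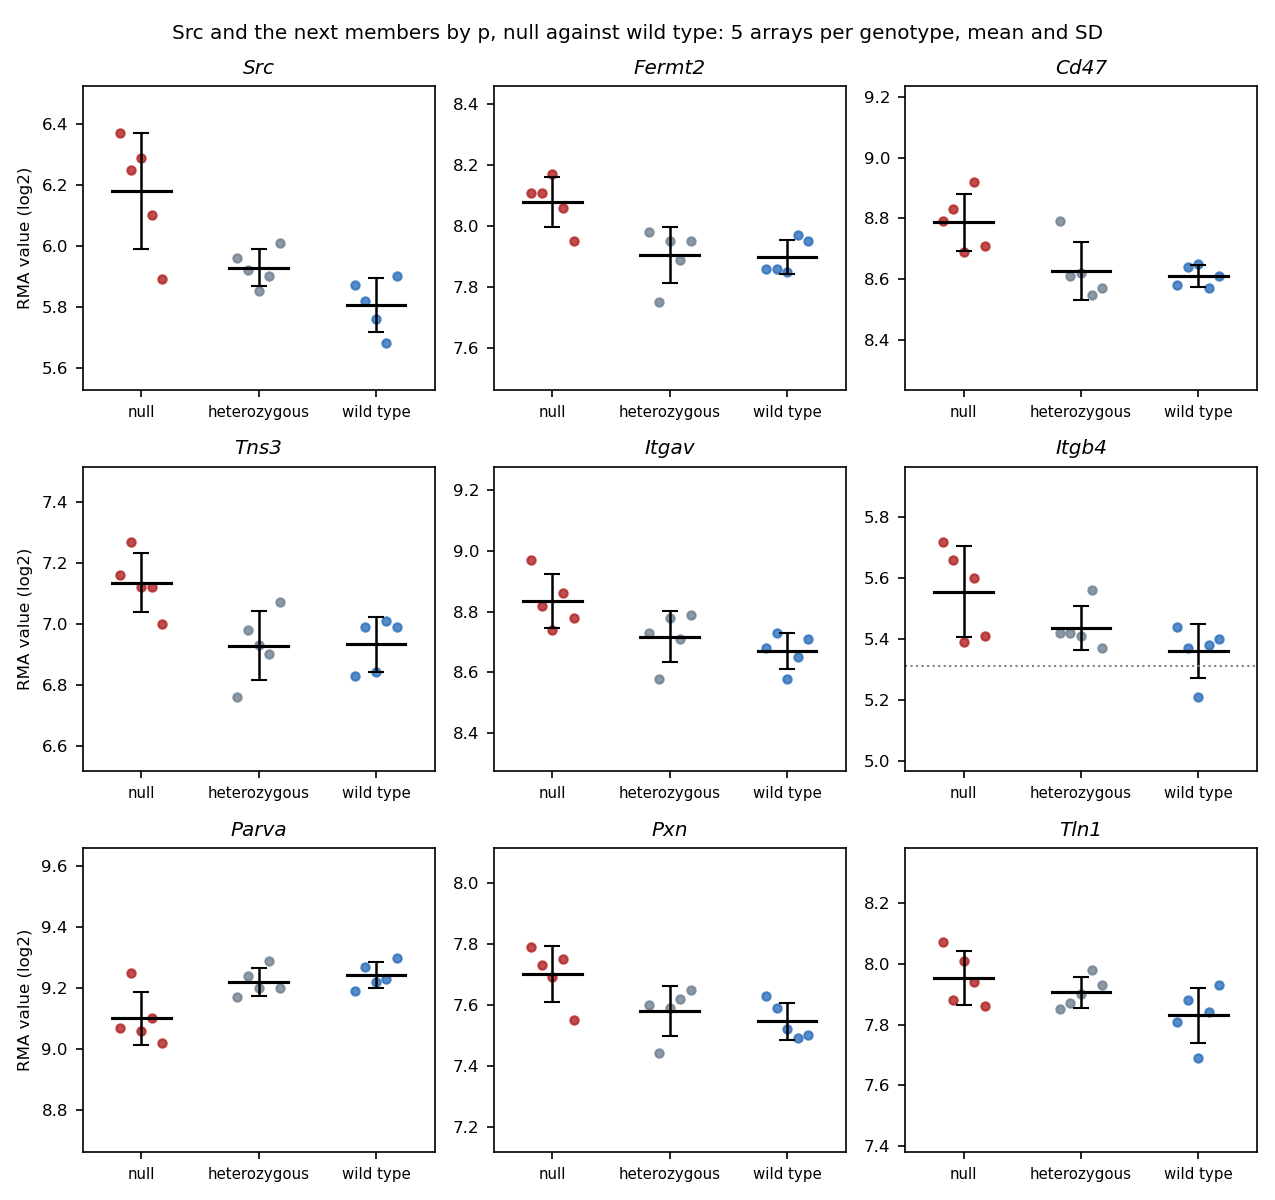
RMA values (log2, y axis, each panel spanning 1 unit) of Src and the 8 members that follow it by p in null against wild type, in 5 arrays per genotype, with mean and SD in black and the filter value as a dotted line. Src passed the test, with null arrays between 5.89 and 6.37 and wild-type arrays between 5.68 and 5.90, and none of the other 8 members did.

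Of the 16 integrin subunits, 12 were tested and none was called in any comparison. Among receptors for RGD-containing ligands such as fibronectin, vitronectin and latent TGF-beta, Itgav, the alpha v subunit, read 8.97, 8.82, 8.74, 8.86 and 8.78 in null arrays. It read 8.73, 8.58, 8.78, 8.71 and 8.79 in heterozygous arrays and 8.68, 8.73, 8.58, 8.65 and 8.71 in wild-type arrays. The lowest null array was just above the highest wild-type array, so these groups did not overlap, while null and heterozygous arrays did. Arrays of null and wild-type animals were fully separate for 3 of the 30 members, Tns4, Itgav and Cd47, and for 5.95% of all tested genes. Null and heterozygous arrays were separate for 1 member, Tns4, and for 5.76% of all genes, and heterozygous and wild-type arrays for 0 members and 0.801% of all genes. The difference of Itgav was 0.16 (95% confidence interval 0.04 to 0.29, adjusted p = 0.0935). Its partners Itgb5 and Itgb8 differed from wild type by -0.04 and -0.01 in null animals, with 95% confidence intervals of -0.17 to 0.10 and -0.16 to 0.15. Itgb6, a partner that activates TGF-beta in epithelia, averaged 5.75 ± 0.11 in null, 5.94 ± 0.13 in heterozygous and 5.80 ± 0.18 in wild-type animals. It read 5.76, 5.84, 5.62, 5.65 and 5.86 in null arrays, 5.73, 5.91, 5.99, 6.00 and 6.07 in heterozygous arrays and 5.85, 5.82, 5.72, 5.56 and 6.04 in wild-type arrays, which all overlapped. Its difference of heterozygous from wild type was 0.14 and that of null from heterozygous -0.19, neither of them called (adjusted p = 0.994 and 0.159).

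Itga8, the alpha subunit known for its role in kidney development, varied most among the tested members, with a pooled SD within genotypes of 0.384. It ran from 5.48 to 6.50 in null, from 5.77 to 6.95 in heterozygous and from 6.23 to 6.89 in wild-type arrays. The lowest values were those of null arrays 1 and 5 and heterozygous array 1, which are the arrays that stand apart by sex genes or neuronal transcripts. The difference of null from wild type was -0.33 (95% confidence interval -0.76 to 0.11, adjusted p = 0.353).

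The laminin-binding subunits form the receptors that hold epithelia to basement membranes, and all 4 had a null mean above wild type without a call. Itgb4, whose product pairs with alpha 6 in hemidesmosomes, read 5.72, 5.66, 5.39, 5.60 and 5.41 in null arrays, 5.42, 5.42, 5.41, 5.56 and 5.37 in heterozygous arrays and 5.44, 5.37, 5.21, 5.38 and 5.40 in wild-type arrays. Null arrays 1, 2 and 4 lay above the other genotypes, and arrays 3 and 5 did not. Its difference was 0.20 (adjusted p = 0.0965), at a level close to the filter value. Itga3, Itga6 and Itga7 differed by 0.06, 0.07 and 0.12. Itgb1, the beta subunit shared by most of these receptors and by the collagen receptors, averaged 9.21 ± 0.13 in null, 9.13 ± 0.10 in heterozygous and 9.08 ± 0.08 in wild-type animals, and the difference of 0.12 did not pass (adjusted p = 0.292). The collagen receptor subunit Itga1 differed by 0.18 (adjusted p = 0.404) and Itga9, whose product binds tenascin and VCAM-1, by 0.05 (adjusted p = 0.784).

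Of the other matrix receptors, Cd47, a partner of integrins that binds thrombospondin and the phagocyte receptor SIRP-alpha, read 8.79, 8.83, 8.69, 8.92 and 8.71 in null arrays. It read 8.79, 8.61, 8.62, 8.55 and 8.57 in heterozygous arrays and 8.58, 8.64, 8.65, 8.57 and 8.61 in wild-type arrays. All null arrays were above all wild-type arrays, and heterozygous array 1 alone reached the null range. The difference from wild type was 0.18 (adjusted p = 0.0721), and without heterozygous array 1 it passed at the same size (adjusted p = 0.0479). The other probe set of Cd47 gave 0.22. Dag1, which encodes the laminin receptor dystroglycan, read 8.51, 8.38, 8.57, 8.54 and 8.24 in null arrays, 8.33, 8.40, 8.52, 8.51 and 8.41 in heterozygous arrays and 8.33, 8.27, 8.22, 8.29 and 8.43 in wild-type arrays. The groups overlapped, and Dag1 stood 0.14 above wild type in null (adjusted p = 0.217) and 0.13 above it in heterozygous animals, the smallest unadjusted p of any member in that comparison (0.08, adjusted p = 0.994 in limma).

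The 6 members below the filter, Itga2, Itga4, Itga5, Itgb3, Parvb and Cd44, exceeded 5.31 in 0 of 15 arrays and were not tested. Their group means ran from 3.52 (Parvb) to 5.02 (Itga5) in null, from 3.57 to 4.93 in heterozygous and from 3.54 to 4.85 in wild-type animals. Itga5 pairs with beta 1 as the main fibronectin receptor, and Cd44 encodes a hyaluronan receptor. At these levels a gene near background and one not expressed cannot be told apart on the array.

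The median pooled SD within genotypes was 0.110 for the members, close to 0.122 over all tested genes. Itga8, Tns2, Tns4, Itga1 and Tns1 varied most, with pooled SDs of 0.384, 0.264, 0.232, 0.230 and 0.230. Their median difference of null from wild type was 0.06, with 21 of 30 (70.0%) above 0, against 0.01 and 53.7% over all tested genes. The medians of heterozygous from wild type and of null from heterozygous were 0.02 and 0.05, with 20 (66.7%) and 21 (70.0%) members above 0, against 51.2% and 52.1% of all genes. Position within each genotype was uneven. Null array 5 was the lowest of the 5 null arrays for 17 of the 30 members, or 56.7%, where it was the lowest for 29.2% of all tested genes. Null array 1 was the highest for 11 members, or 36.7%, against 22.8% of all tested genes. Wild-type array 5 was the highest wild-type array for 14 members, or 46.7%, against 21.8% of all tested genes. Heterozygous array 5 was the highest heterozygous array for 11 members, or 36.7%, against 20.2%. Without null arrays 1 and 5 the members' median difference from wild type was 0.10, and Tns4 and Src were again the members called.

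**Figure D4:**
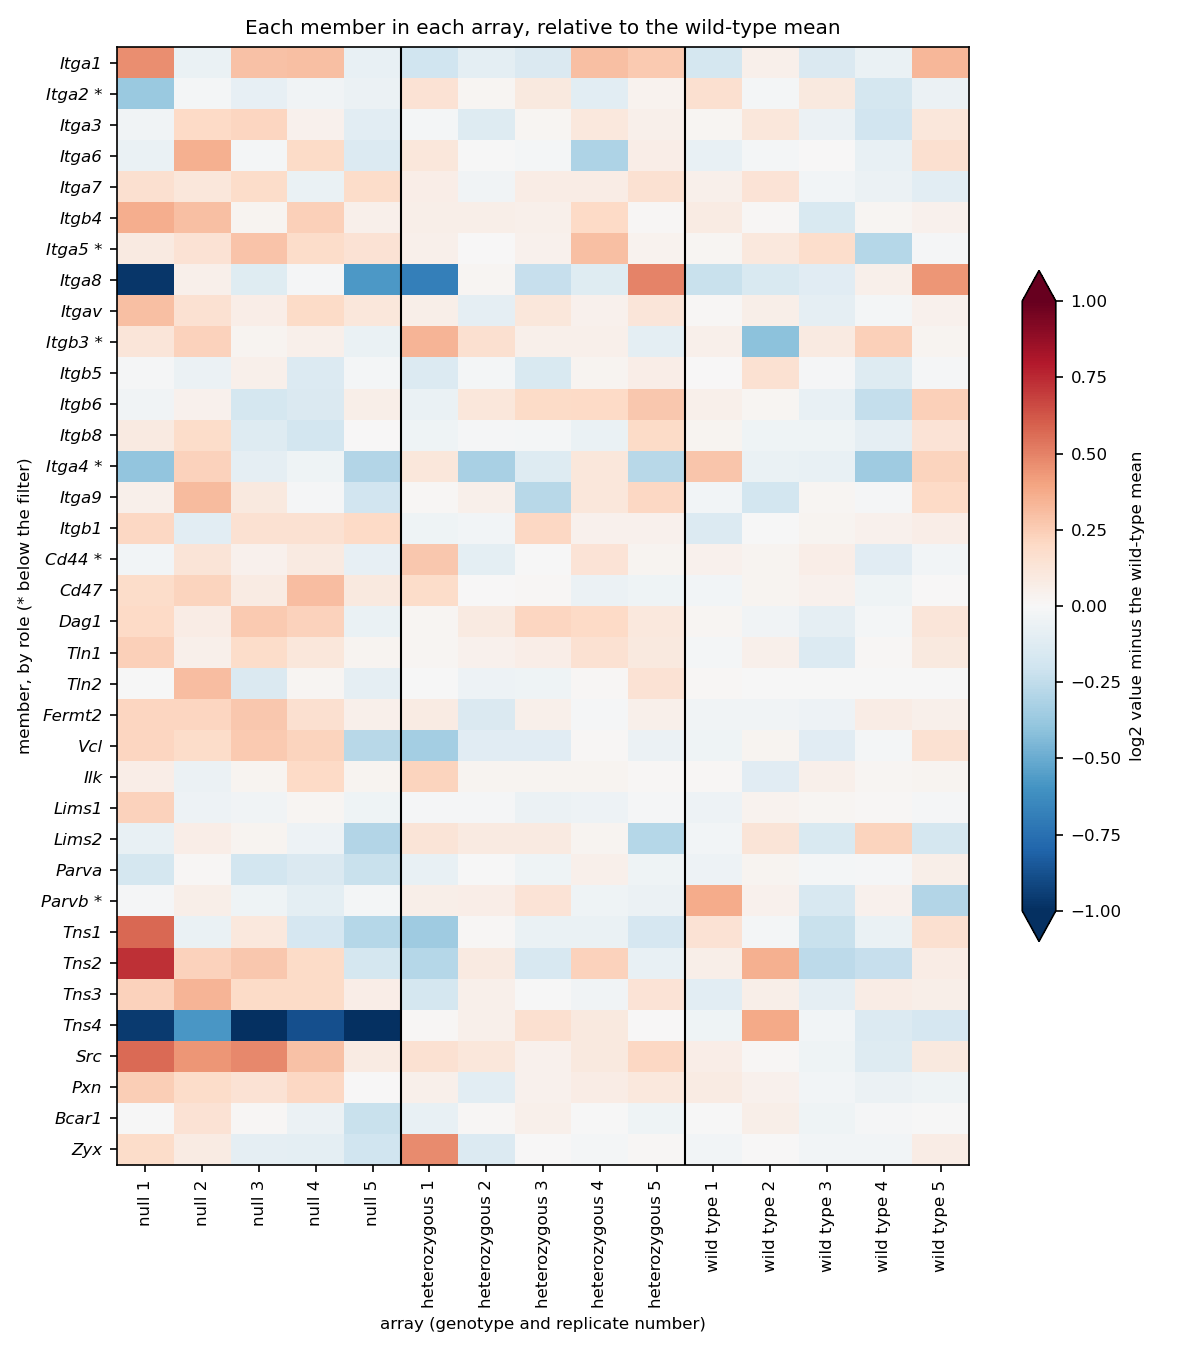
Log2 value of each of the 36 measured members (rows, by role, with an asterisk for those below the filter) in each of the 15 arrays (columns, null, then heterozygous, then wild type) minus the wild-type mean, with colours saturating at -1 and 1. The Tns4 row is blue in all 5 null arrays, the Src row is red in null arrays 1 to 4 and paler in array 5, and the Itga8 row is blue in null arrays 1 and 5 and heterozygous array 1.

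Matrix ligands of these receptors were followed as a related list. Of 36 tested ligand genes 3 rose and 1 fell in null against wild type (11.1%, against 7.72% of all tested genes), with a median difference of 0.13 and 31 above 0. Thbs1, which encodes thrombospondin 1, a ligand of CD47 and of several integrins, read 8.23, 8.14, 8.38, 8.37 and 7.72 in null arrays. It read 7.46, 7.49, 7.39, 7.70 and 7.78 in heterozygous arrays and 7.34, 7.26, 7.34, 7.60 and 7.81 in wild-type arrays. Null arrays 1 to 4 were above all others and array 5 was within the wild-type range. Thbs1 rose by 0.70 against wild type (adjusted p = 0.00341) and by 0.60 against heterozygous animals (adjusted p = 0.00989), and both calls held when any single array was left out. With the label number as a covariate neither did (0.60, adjusted p = 0.103, and 0.51, adjusted p = 0.155). Ltbp1, a latent TGF-beta binding protein, read between 5.62 and 5.73 in null, between 5.39 and 5.53 in heterozygous and between 5.26 and 5.55 in wild-type arrays and rose by 0.26 (adjusted p = 0.0122), whichever single array was left out, but not with the label number as a covariate (0.24, adjusted p = 0.154).

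Lamb2, the laminin beta 2 chain, rose by 0.36 (adjusted p = 0.0339). This call was lost without null array 1, 3 or 4 or wild-type array 1 or 3 (lowest difference 0.28, highest adjusted p = 0.0999). Lamb2 was also called against heterozygous animals (0.35, adjusted p = 0.0385), in 8 of 15 fits that left out 1 array. Of the 36 ligand genes 3 rose in that comparison, Thbs1, Lamb2 and Tgfb3, or 8.33%, against 7.82% of all tested genes. Mfge8, a secreted ligand of alpha v integrins, fell by 0.27 (adjusted p = 0.0199), and its call was lost without null array 1 or wild-type array 1 or 2 (highest adjusted p = 0.0638). Tgfb3, whose latent form is activated by alpha v integrins, did not pass against wild type (0.27, adjusted p = 0.109) and was called against heterozygous animals (0.43, adjusted p = 0.0165), a call lost without null array 1 (adjusted p = 0.0502). Without null arrays 1 and 5, 2 ligand genes rose against wild type, Thbs1 and Ltbp1, and 0 fell. In the same fit 4 rose against heterozygous animals, Thbs1, Tgfb3, Ccn2 and Col3a1, and Lamb2 lost its call. In the fit of all arrays Cdh5, Kdr, Dcn and Pdgfra rose against wild type, and without null arrays 1 and 5 Pdgfra lost its call. The part of endothelial and stromal cells in the differences of the ligand genes was not tested.

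Cytoplasmic partners were called at shares near or below the 7.72% of all tested genes. Of 38 further adaptors and signalling proteins, 2 rose and 0 fell in null against wild type (5.26%). Nck2, an SH2 and SH3 adaptor, rose by 0.29 (adjusted p = 0.0164), with all null arrays (6.40 to 6.75) above all wild-type arrays (6.14 to 6.34) and heterozygous arrays between 6.35 and 6.54, and it passed whichever single array was left out but not with the label number as a covariate (0.31, adjusted p = 0.126). Sorbs3, which encodes the vinculin-binding protein vinexin, rose by 0.25 (adjusted p = 0.0485), a call that held in only 3 of 15 fits that left out 1 array. Without null arrays 1 and 5 Nck2 kept its call and Sorbs3 lost it. Of the others nearest the threshold, Efs, which encodes a relative of p130Cas, differed by -0.28 (adjusted p = 0.071) and the ubiquitin ligase gene Cbl by 0.22 (adjusted p = 0.0995).

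Of 28 actin linkers and zyxin relatives, 1 rose, the LIM protein gene Csrp1 (0.42, adjusted p = 0.0291), and 0 fell (3.57%). Csrp1 read 10.45 in null array 1 and 9.59 to 10.01 in the other null arrays, 9.51 to 9.69 in heterozygous arrays and 9.39 to 9.70 in wild-type arrays. Its call was lost without null array 1 or 3 or wild-type array 2, 3, 4 or 5 (highest adjusted p = 0.0695). Leaving out null arrays 1 and 5 together also removed the call, so that 0 genes of this list rose. Cnn3, the calponin 3 gene, differed by 0.24 (adjusted p = 0.0618), Lasp1 by -0.24 (adjusted p = 0.146) and Myh10, a nonmuscle myosin heavy chain, by 0.16 (adjusted p = 0.16). Lpp, a relative of zyxin, was called against heterozygous animals (0.36, adjusted p = 0.0191), a call lost without null array 3 or heterozygous array 1, 2 or 3 (highest adjusted p = 0.0562), and not against wild type (0.16, adjusted p = 0.283).

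Genes for activation and turnover of integrins gave no call among 18 tested in any comparison (0%), and their median difference of null from wild type was -0.01. The smallest p belonged to Rab21, a GTPase of integrin endocytosis (-0.18, adjusted p = 0.0986). The dystrophin and dystroglycan complex gave no call among 11 tested (0%), with a median of 0.04 and Sntb2 (0.24, adjusted p = 0.106), a syntrophin gene, first by p. Of the 11 other integrin subunits, which include those of leukocytes and platelets, only Itga10 was above the filter (0.01). Of 16 genes regulated by or acting with SRF and YAP, which respond to adhesion and actin tension, 1 rose (6.25%) with a median of 0.13. It was Wwtr1, which encodes the coactivator TAZ (0.21, adjusted p = 0.0431), a call kept in 4 of 15 fits that left out 1 array. In the same list Ccn2 differed by 0.39 (adjusted p = 0.17) and Amotl2 by 0.30 (adjusted p = 0.0664). Ccn1 and Ccn2 are also in the ligand list, and Ajuba is also in that of actin linkers and zyxin relatives. Against heterozygous animals Wwtr1 (0.20, adjusted p = 0.0481) and Mrtfb (0.29, adjusted p = 0.0404), an SRF coactivator, were called, in 2 and 8 of 15 such fits.

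**Figure D5:**
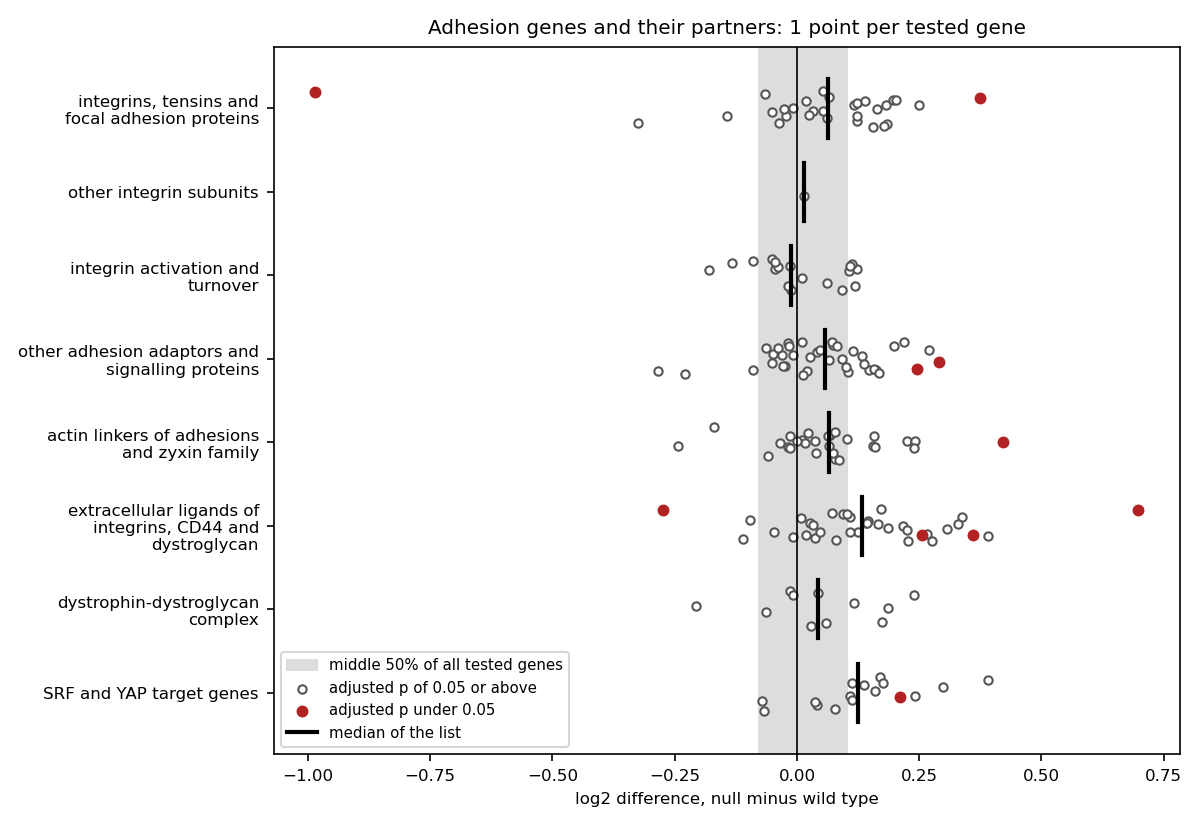
Log2 difference of null minus wild type (x axis) for every tested gene of the adhesion list (top row) and of 7 related lists, with 1 point per gene, filled red at an adjusted p under 0.05, black bars for list medians and a grey band for the middle 50% of all tested genes. Tns4 at -0.99 and Thbs1 at 0.70 are the points farthest from 0. The medians of the ligand list and of the SRF and YAP list, both at 0.13, lie outside the grey band. These lists share Ccn1 and Ccn2.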

How the data were processed

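RNA of dissected choroid plexus from 15 mice was labelled with biotin (250 ng of total RNA) and hybridized to Affymetrix arrays, per the labels' protocols. The deposited values are RMA values, made with Affymetrix Expression Console 1.1, per the submitters' processing notes. They are taken to be log2 values: the deposited table runs from 1.57 to 13.89 with array medians of 4.78 to 4.88, and no source used here gives its log base or genome build. Gene names came from GEO's annotation of the array, possibly outdated: of 35556 probe sets, 21789 carried 1 gene symbol, 1621 several and 12146 were not listed. Symbols were updated through the gene identifiers of a RefSeq table (21698 matched).

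Genotype means of the 15 arrays were fitted together with limma 3.58.1 in R 4.3.3 (lmFit and eBayes), without covariates, and Benjamini-Hochberg adjusted p-values run over all 10109 tested genes. A call is an adjusted p under 0.05. The procedure was tested on simulated arrays, with genes drawn independently and with equal spread in all genotypes. The simulation held no array against its sex label, none high in neuronal transcripts and no label number. It therefore does not cover these features of the data. The members and lists were chosen with earlier results of these data known. Values in every array are given for members called in any comparison, the 10 with the smallest p in null against wild type and the 3 with the smallest p in each other comparison. Vcl was shown array by array after its values were seen, and members of related lists were named by p. Lists are described by counts and medians, with no set test. Replicate numbers of the titles are shared across genotypes, but deviations of same-numbered arrays correlated between -0.254 and 0.238, so numbers were not treated as pairs. The labels do not say that animals were from separate litters. The p-values set each difference of genotype means against the spread between arrays of the same genotype, whose number limits the precision. With litters unknown, that spread may not be the spread between independent animals.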

Additional observations from a re-analysis of the deposited data

Results flagged for a closer look

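Single arrays stood apart from the other 4 of their genotype in 15 of 111 groups of 5 arrays, or 13.5%. The groups were those of Add1 and the 36 measured members, judged by Dixon's gap criterion at the 95% level, where chance gives about 5%. The share over all tested genes was not computed, so whether the members differ from other genes in this is not known. In the null group these were Itga2 in array 1 (4.32, others 4.61 to 4.67), Itga7 in array 4 (5.35, others 5.53 to 5.60), Itgb1 in array 2 (8.98, others 9.24 to 9.29), Vcl in array 5 (5.83, others 6.29 to 6.37) and Lims1 in array 1 (7.61, others 7.33 to 7.40). In the heterozygous group array 1 was high for Zyx (6.78, others 6.17 to 6.32) and Ilk (8.55, others 8.34 to 8.36). Array 4 was high for Itga5 (5.15, others 4.85 to 4.90) and Itgb4 (5.56, others 5.37 to 5.42), and array 2 was low for Pxn (7.44, others 7.59 to 7.65). Heterozygous array 5 was high for Itgb8 (10.49, others 10.23 to 10.29) and low for Lims2 (5.48, others 5.79 to 5.89). In the wild-type group array 2 was high for Tns4 (6.68, others 6.13 to 6.27) and low for Ilk (8.22, others 8.34 to 8.38), and array 1 was high for Tln2 (5.34, others all 5.33), a gap of the last digit given.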

How the results depend on the processing

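Tns4 and Src kept their calls in null against wild type under every alternative that tested them: no filter, all probe sets, quantile normalization or median centring repeated over the arrays, a variance trend, array weights, the 2 genotypes alone, label number as a covariate or random block, a replicate block and arrays left out. The log2 difference of Tns4 ran from -1.15 to -0.82 and that of Src from 0.33 to 0.47. A filter in all 15 arrays removed Tns4 and left 1 member called. Members called in null against wild type, 2 as reported, were 3 after median centring (Parva added) and 5 with array weights, and 2 to 5 with single arrays left out. In null against heterozygous, 1 as reported, they were 2 after renewed quantile normalization and 2 after median centring, 6 with array weights, 3 without the null arrays whose sex genes oppose the label, and 1 to 5 with single arrays left out. All genes called in null against wild type, 780 as reported, were 523 with no filter, 458 with the 2 genotypes alone, 1315 with array weights, 259 with the label number as covariate, 401 without the arrays opposing their sex label and 392 to 1420 with single arrays left out. In null against heterozygous, 791 as reported, they were 500, 342, 1296, 199, 332 and 356 to 1812 under the same settings, and 456 without heterozygous array 1. In heterozygous against wild type, 0 as reported, they were 1 with array weights, 1 without the arrays opposing their sex label and 0 to 1 with single arrays left out. A replicate block gave 520 genes and 2 members for null against wild type and 546 and 1 for null against heterozygous. Same-numbered arrays did not deviate together, and no call of a member changed under the block. Add1 in null against wild type missed the threshold under it (adjusted p = 0.0575), with the 2 genotypes alone (0.0535) and with the label number as covariate (-0.27, adjusted p = 0.250). After median centring 42.6% of calls in null against wild type were higher, against 54.1% as reported, and 43.1% against 54.7% in null against heterozygous. Without the arrays opposing their sex label these shares were 64.6% and 67.5%. The label number is of unstated meaning and was higher in most null animals, so a fit with it as covariate removes part of the genotype contrast as well. The causes of the other shifts were not tested, and signal near background limits the low genes, Tns4 in null arrays included.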
